A study of Mus musculus with 4 samples.

Results

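The nuclei described here are barcodes of CT26 tumours that carried RNA of the tumour marker Hmga2, no UMI of the leukocyte gene Ptprc, and very little RNA in all. A UMI is a molecular tag that counts 1 captured RNA molecule. A barcode was taken when it held at least 500 and fewer than 3000 UMIs and at least 300 genes, with at most 20% of its UMIs from mitochondrial genes. It also had at least 1 Hmga2 UMI, at least 5 Hmga2 UMIs per 10000, and 0 Ptprc UMIs. These terms found 125 of the 5859 barcodes of both libraries, 62 in the Sun1_WT library and 63 in the Sun1_KO library. They are called shallow nuclei below. They were chosen by their UMI total, gene number, mitochondrial share, Hmga2 and Ptprc, so values of those measures are a description only.

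CT26 is a mouse colon cancer line that grows in BALB/c mice, the strain it came from. The study placed wild-type CT26 cells (Sun1_WT) or CT26 cells labelled as a Sun1 knockout (Sun1_KO) under the skin, 1000000 cells to an injection, and took the tumours at day 14. Tumour tissue was digested with collagenase IV and Dnase I, and nuclei were profiled for RNA and open chromatin in the same droplets. Each genotype has 1 RNA library and 1 accessibility library. The number of animals and tumours behind a library, the number of clones of the knockout line and the way Sun1 was disrupted are not stated in the labels. With 1 library per genotype there is no test between genotypes. Nuclei of 1 library are not replicates of a condition, so no p-value is given. Every interval below covers only the sampling of UMIs, counts or nuclei within a library, and not the spread between animals or libraries.

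Hmga2 is a chromatin protein of embryonic and cancer cells that binds the minor groove of AT-rich DNA and is nearly silent in most adult tissue. Ptprc encodes CD45, the surface phosphatase of white blood cells. SUN1 sits in the inner nuclear membrane as a subunit of the LINC complex, which joins the nuclear lamina to the cytoskeleton. In droplet assays a barcode holds the RNA of its own nucleus and also RNA that floated free in the suspension. The accessibility reads of the same barcode come from DNA cut inside nuclei.

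A pair of promoters shows what the accessibility of these nuclei could be read against. Both are printed from RefSeq (build GRCm38.p6), as the 250 bases before the gene's start, 5′ to 3′ on the gene's strand. The Ccn1 promoter (chr3:145649986-145650235, minus strand) is the tumour-list promoter with most counts in deep nuclei. Its capitals mark GGAATG, the core letters of the TEAD site, which is found here on the other strand as CATTCC. The Ptprc promoter (chr1:138175306-138175555, minus strand) stands for leukocyte chromatin. Its capitals mark GAGGAA, the core letters of the site of the myeloid factor PU.1. Both strands were searched, and the marked matches do not overlap.
Ccn1: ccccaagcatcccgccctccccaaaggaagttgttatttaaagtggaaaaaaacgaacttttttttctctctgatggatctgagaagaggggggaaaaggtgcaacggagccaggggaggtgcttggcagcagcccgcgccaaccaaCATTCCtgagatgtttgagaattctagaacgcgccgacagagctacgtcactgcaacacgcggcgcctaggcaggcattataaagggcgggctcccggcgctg
Ptprc: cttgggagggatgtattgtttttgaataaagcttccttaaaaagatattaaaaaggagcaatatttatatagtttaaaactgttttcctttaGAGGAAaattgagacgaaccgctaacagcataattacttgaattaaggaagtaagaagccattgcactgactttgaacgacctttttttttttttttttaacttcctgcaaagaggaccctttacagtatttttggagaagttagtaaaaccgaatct
Each promoter held 1 match. Of 32851 mouse promoter windows of this length, 12.6% held GGAATG and 23.3% held GAGGAA, so a match is a description and not a site.

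At the Ccn1 promoter, 13 of the 62 shallow nuclei of Sun1_WT (21.0%) and 20 of the 63 of Sun1_KO (31.7%) had a count. The level there was 43.7 and 44.3 counts per 1000000 accessibility counts (CPM). Deep nuclei of the same gate, those with at least 10000 UMIs, had 35.8 and 45.3 CPM there, with a count in 68.8% and 79.9% of them, at far more counts per nucleus. Ptprc-positive nuclei without Hmga2 in the same UMI range, which were the deeper ones within it and are called shallow leukocyte nuclei below, had 3.68 CPM in Sun1_WT. In Sun1_KO their 220 nuclei had 0 counts there. Ccn1 encodes a secreted matrix protein and is a well-known target of YAP and TEAD.

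At the Ptprc promoter the order turned round. A count was found in 1 of 62 (1.61%) and 1 of 63 (1.59%) shallow nuclei, with 2 counts in each library. Among shallow leukocyte nuclei it was found in 43 of 180 (23.9%) and 55 of 220. Deep nuclei had 0.264 and 0.209 CPM there, and the 2 counts of each library made 2.65 and 1.93 CPM in shallow nuclei. By CPM the shallow nuclei stood nearer to deep gated nuclei than to shallow leukocyte nuclei at both promoters. Over the 16 tumour markers, 7 had a shared accessible region at a promoter. Those regions drew 160 CPM in the shallow nuclei of Sun1_WT and 171 in Sun1_KO, against 191 and 206 in deep nuclei and 23.6 and 26.9 in shallow leukocyte nuclei. Promoter regions of macrophage markers drew 38.4 and 29.9 CPM in shallow nuclei, against 12.5 and 11.1 in deep nuclei. Shallow leukocyte nuclei had 109 and 95.7 there. Promoter regions of NK cell markers drew 14.6 and 7.70 CPM, against 2.53 and 2.85 in deep nuclei. Those of T cell markers also stood above deep nuclei, those of neutrophil markers only in Sun1_KO, and those of dendritic cell markers stood below. No shared region lay over the Hmga2 promoter.

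The Sun1_WT library was the deeper one in RNA. The RNA libraries held 53707675 UMIs over 3455 barcodes (Sun1_WT) and 35471291 over 2404 (Sun1_KO), and the accessibility libraries 227006096 and 183750142 counts in 127147 and 134365 peaks. Every RNA barcode had its accessibility barcode. The shallow nuclei held 84344 and 69299 UMIs, or 0.157% and 0.195% of the RNA library. Between the genotypes 12 barcodes were shared, none of them a shallow nucleus. No doublet caller was run, and the labels do not say whether doublets had been taken out before deposit. Sun1 itself had 10 UMIs in the shallow nuclei of Sun1_WT and 4 in those of Sun1_KO. In deep nuclei it stood at 105 and 62.3 UMIs per 1000000 UMIs. Without knowing which bases were disrupted, that level does not check the label.

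Few barcodes reached the gate at this depth. Of 301 and 356 barcodes with at least 500 and fewer than 3000 UMIs that met the gene and mitochondrial terms, 203 and 253 held Ptprc. Of the 98 and 103 without Ptprc, 34 and 40 had no Hmga2 UMI, and 2 in Sun1_WT had too low an Hmga2 share. The shallow nuclei made up 2.81% (exact 95% binomial interval 2.16 to 3.58) of the 2209 gated nuclei of Sun1_WT. They made up 5.19% (4.01 to 6.59) of the 1214 gated nuclei of Sun1_KO. Most gated nuclei were deep, 1838 in Sun1_WT and 985 in Sun1_KO, and 309 and 166 were of middle depth, with at least 3000 and fewer than 10000 UMIs.

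The shallow nuclei were shallow in different degrees. In Sun1_WT they ran from 513 to 2750 UMIs with a median of 1283.5, and in Sun1_KO from 526 to 2955 with a median of 949. Median gene numbers were 900 and 695. Deep nuclei had medians of 18855 and 17627 UMIs. Hmga2 itself had a median of 3 UMIs in both libraries, with 18 highest in Sun1_WT and 20 in Sun1_KO. A single Hmga2 UMI carried 18 of 62 and 23 of 63 nuclei through the gate.

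A single UMI can come from free RNA, so the Hmga2 terms were also read in nuclei that should lack the gene. Among barcodes of the same UMI range with Ptprc, 15 of 203 (7.39%, 4.19 to 11.9) met the Hmga2 terms in Sun1_WT and 22 of 253 (8.70%, 5.53 to 12.9) in Sun1_KO. Among barcodes without Ptprc, 63.3% and 61.2% met them. The barcodes with Ptprc were the deeper ones, with median UMIs of 2057 and 1936 against 1145.5 and 912. Since 5 per 10000 asks for more than 1 UMI above 2000 UMIs, the deeper barcodes had the stricter term. With at least 2 Hmga2 UMIs asked of all, 3.94% and 1.58% met the terms with Ptprc and 44.9% and 38.8% without it. Hmga2 and Ptprc chose the nuclei, so these shares describe the gate and support nothing more.

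Chromatin depth was low as well. The accessibility total of a nucleus was not used by the gate. In Sun1_WT it ran from 584 to 83306 counts in shallow nuclei with a median of 7769.5, and in Sun1_KO from 1746 to 91751 with a median of 8751. In deep nuclei the medians were 80016.5 and 94081. Nearly all shallow nuclei thus sat below the bulk of deep nuclei: 1 of 62 and 3 of 63 exceeded the lower quartile of the deep nuclei.

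As group medians, both readouts were therefore low, though not by the same factor. From nucleus to nucleus they tracked each other weakly, with Spearman correlations of 0.09 and 0.26 in shallow nuclei. In deep nuclei the correlations were 0.48 and 0.33. The gate bounded the UMI range within which they were taken. Shallow over deep, the ratio of median accessibility counts was 0.0971 (interval of the ratio 0.0744 to 0.142) in Sun1_WT and 0.0930 (0.0696 to 0.146) in Sun1_KO. The RNA medians, which the gate set, were 14.7 and 18.6 times lower than in deep nuclei, and the accessibility medians 10.3 and 10.8 times lower. Counted as peaks with at least 1 count, the ratio was 0.148 and 0.152. Shallow leukocyte nuclei had medians of 18906 and 21673 counts. They thus held 2.43 and 2.48 times the accessibility of the shallow Hmga2 nuclei, with RNA medians of 2096.5 and 1987.

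**Figure D1:**
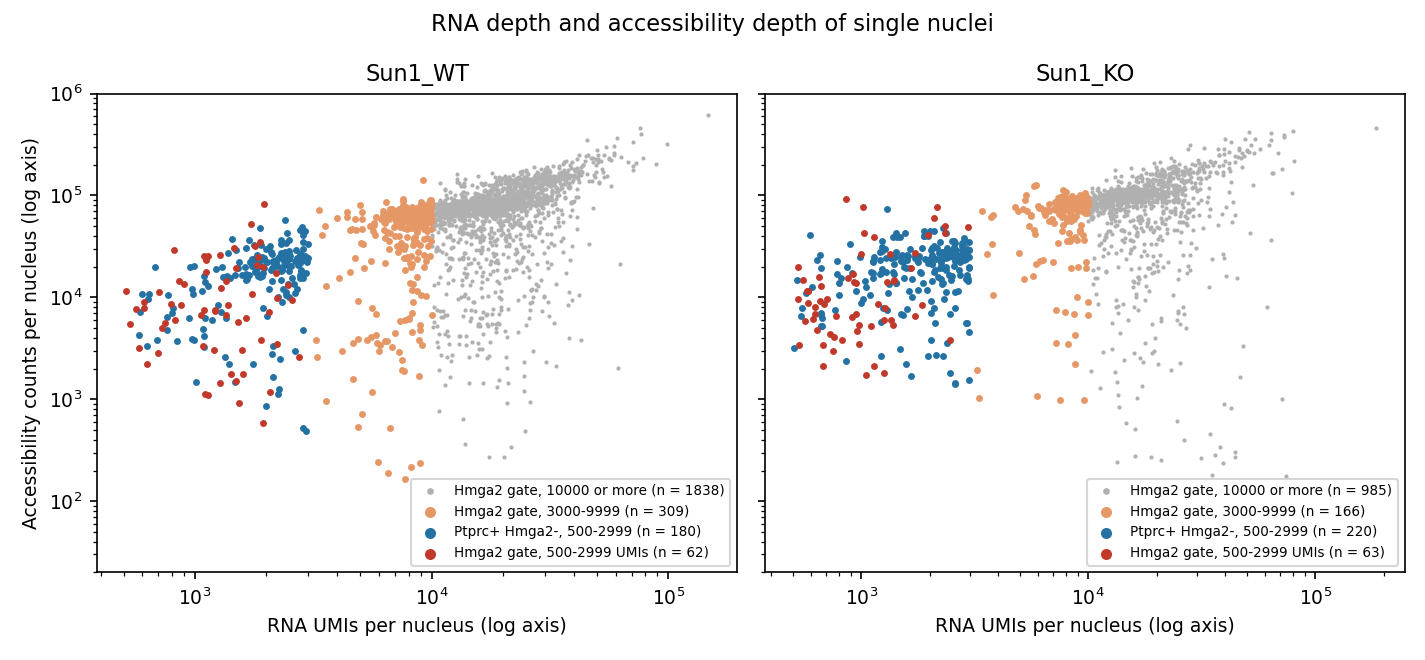
RNA UMIs (x, log axis) against accessibility counts (y, log axis) of single nuclei of both libraries, 1 point a nucleus. The shallow Hmga2-gated nuclei (red) lie under the shallow leukocyte nuclei (blue), at medians of 7769.5 and 8751 counts against 18906 and 21673, and the deep nuclei (grey) at 80016.5 and 94081.

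The spread among the shallow nuclei was wide. Under 10000 accessibility counts stood 38 nuclei of Sun1_WT and 35 of Sun1_KO, from 10000 to under 30000 stood 19 and 18, and at 30000 or more 5 and 10. A small share of deep nuclei had equally thin chromatin. Below the shallow median lay 102 of 1838 deep nuclei (5.55%) in Sun1_WT and 66 of 985 (6.70%) in Sun1_KO. Per UMI, the shallow nuclei had medians of 6.92 and 10.9 accessibility counts, above the 4.38 and 5.65 of deep nuclei, and shallow leukocyte nuclei had 9.56 and 10.6. The gate set the UMI totals that this ratio divides by, so its order against deep nuclei is a description only.

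Around the bound of 3000 UMIs the libraries looked different. In Sun1_WT the accessibility median stayed between 7590 and 8302 counts up to the bound, was 21120.5 in the 24 gated nuclei from 3000 to under 5000 UMIs, and 56631 in the 285 nuclei from 5000 to under 10000. In Sun1_KO it was 8281 and 8545 under 2000 UMIs and already 49187 in the 6 nuclei from 2000 UMIs to the bound. The 5 nuclei just inside the bound had medians of 9459 (Sun1_WT) and 48518 (Sun1_KO), and the 5 just outside 40625 and 26788. Gated nuclei were scarce on both sides of it, with 8 and 6 nuclei from 2000 UMIs up to it and 24 and 11 from there to under 5000.

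Chromatin identity was read from a tumour index. It is the percent of a nucleus's counts that fall in 14993 tumour regions, out of its counts there and in 13647 leukocyte regions. The regions were at least 4-fold apart between deep gated nuclei and leukocyte nuclei with at least 3000 UMIs, in both libraries. They were learned on every other reference nucleus, none of them shallow. The remaining reference nuclei had medians of 95.5 (Sun1_WT) and 95.3 (Sun1_KO) for tumour and 6.38 and 5.61 for leukocytes. The midpoint, 51.0 and 50.4, divided the sides.

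On this index 61 of 62 shallow nuclei of Sun1_WT (98.4%, 91.3 to 99.96) and 54 of 63 of Sun1_KO (85.7%, 74.6 to 93.3) lay on the tumour side. All gated nuclei with more UMIs did, 309 and 166 of middle depth and 1838 and 985 deep ones. The deep ones were the tumour reference: 919 and 493 were used to learn the regions, and 919 and 492 to set the midpoint. Their share was thus largely fixed in advance and is a description only. Of the shallow leukocyte nuclei, 0 of 180 and 1 of 220 did. Read against leukocytes only, the label of tumour nuclei thus held for nearly all of the shallow nuclei of Sun1_WT and went against 9 of the 63 of Sun1_KO.

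The shape of the index differed between the libraries. The median was 94.1 in Sun1_WT, with a range of 6.24 to 97.4, and 51 of 62 nuclei were over 90. In Sun1_KO the median was 86.9, with a range of 3.74 to 97.2, and only 23 of 63 were over 90. Between 20 and 90 lay 10 and 38 nuclei, and under 20 lay 1 and 2. Intermediate nuclei were rare among gated nuclei of middle depth, 4 of 309 and 5 of 166. The intermediate shallow nuclei had median accessibility totals of 5255.5 and 8457 counts, and those over 90 had 8400 and 14900. Whether the libraries differ in this respect beyond 1 library each was not tested.

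**Figure D2:**
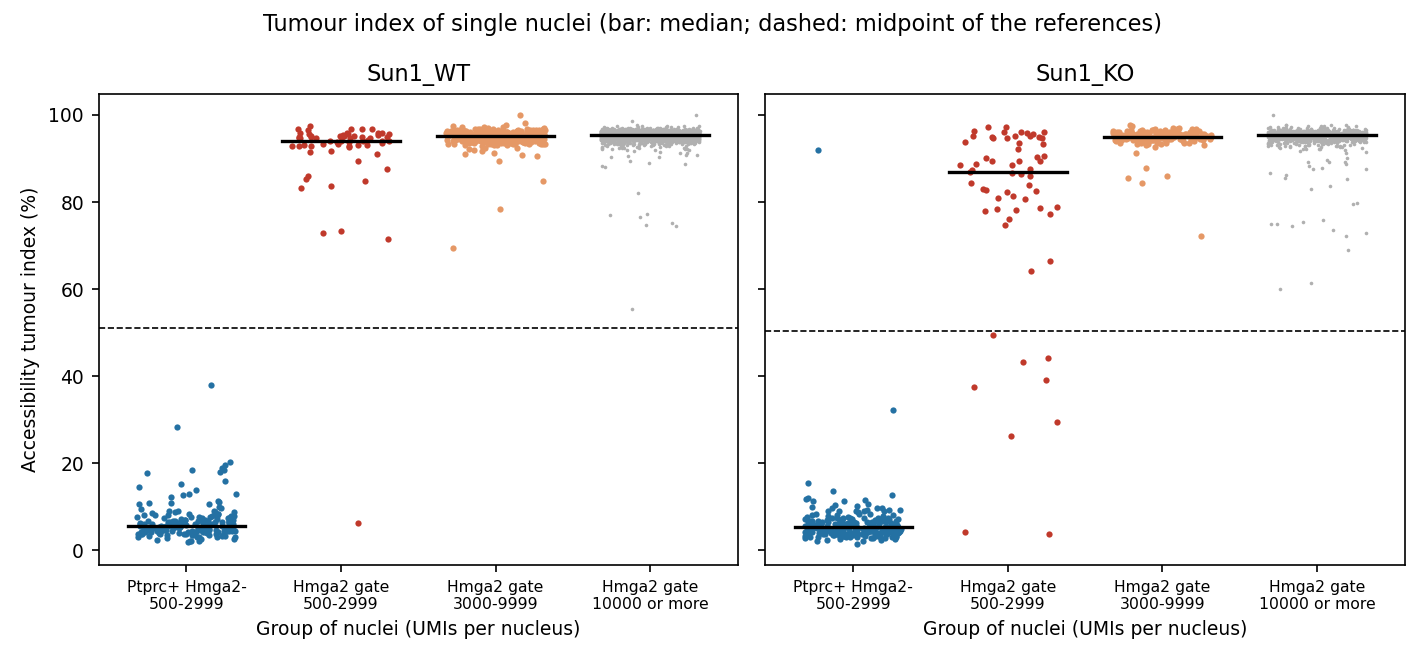
Tumour index (y, percent) of single nuclei by group (x), with the group median as a bar and the midpoint of the references as a dashed line. Shallow Hmga2-gated nuclei sit near the deep nuclei in Sun1_WT (median 94.1), and in Sun1_KO they spread from 3.74 to 97.2 with a median of 86.9.

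The tumour side held most nuclei at each number of Hmga2 UMIs. With 1 Hmga2 UMI, 17 of 18 (Sun1_WT) and 19 of 23 (Sun1_KO) lay on the tumour side. With 2, 6 of 6 and 5 of 8 did. With 3 or more, 38 of 38 and 30 of 32 did. The gate also left tumour-side nuclei out. Of the 86 and 74 shallow nuclei of any kind on the tumour side, 61 and 54 were gated (70.9% and 73.0%). Among shallow nuclei without Ptprc and without Hmga2, 16 of 34 and 13 of 40 were on that side. Among those with Ptprc that met the Hmga2 terms, 7 of 15 and 6 of 22 were.

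A stretch of chromosome X gave a second reading of identity, in Sun1_KO only. In deep nuclei a stretch from 6000001 to 43000000 on chromosome X (mm10) was less open in Sun1_KO, with a median ratio to Sun1_WT of 0.578 over 23 windows and a highest window of 0.866. The shallow nuclei of Sun1_WT had 4027 CPM in its 602 regions (3885 to 4172), and those of Sun1_KO 2294 (2203 to 2388). Deep nuclei had 3764 and 2178. Shallow leukocyte nuclei, which come from the host, had 3991 and 3976. In Sun1_WT the deep nuclei and the leukocytes were thus close, and the stretch cannot tell tumour from leukocyte nuclei there. The 10 shallow nuclei of Sun1_WT with an index from 20 to 90 had 2920 (2580 to 3292), below both, which was not tested. In Sun1_KO the shallow nuclei on the tumour side had 2203 (2109 to 2299), and the 9 on the other side 3206 (2855 to 3587), between the deep nuclei and the leukocytes.

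Xist, the long RNA of the inactive X chromosome, moved with the index. It is outside the rule for named genes and was chosen after its values were seen. Shallow nuclei had 4 Xist UMIs in 2 nuclei of Sun1_WT and 19 in 9 nuclei of Sun1_KO. Shallow nuclei with an index over 90 had 0 in both libraries. With an index from 20 to 90 they had 1 UMI in Sun1_WT and 15 in 8 nuclei of Sun1_KO. The whole tumour side held 1 and 5 Xist UMIs, or 12.7 and 91.0 per 1000000 UMIs, above the deep nuclei. On the other side of the midpoint, the single nucleus of Sun1_WT held 3 Xist UMIs and the 9 of Sun1_KO held 14, in 6 of them. That was 1645 and 1544 UMIs per 1000000 UMIs, beside 1284 and 1250 in shallow leukocyte nuclei and 3.50 and 10.0 in deep nuclei. Its part in the other RNA results was not tested.

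At matched depth the shallow nuclei held about as many genes as deep ones. Each nucleus was thinned to 1000 UMIs, which left out 17 and 36 shallow nuclei with fewer. The medians were then 731 genes (n = 45) and 739 (n = 27) in shallow nuclei and 732 and 727 in deep nuclei. Thinned to 500 UMIs, which kept all of them, the medians were 404 and 398 against 405 and 398. A Hmga2 UMI remained in 77.4% and 82.5% of shallow nuclei at 500 UMIs and in 70.2% and 80.7% of deep ones, though the gate had asked for Hmga2.

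The make-up of the RNA was compared by summing UMIs over the nuclei of a group. Levels are UMIs of a gene per 1000000 UMIs of all genes but the mitochondrial ones (CPM), and differences are log2 ratios of shallow over deep after adding 0.5 UMI, with exact 95% intervals. Genes were compared where at least 20 UMIs were expected in the smaller sum. Of 640 genes compared in Sun1_WT, 12 were at least 2-fold higher in shallow nuclei (1.88%) and 6 at least 2-fold lower (0.938%). Of 479 in Sun1_KO, 12 were higher (2.51%) and 4 lower (0.835%). Past 2-fold either way were thus 2.81% and 3.34% of genes, and at least 1.5-fold higher were 7.5% and 8.35%. The median log2 difference over all genes was 0.05 and -0.08. Few of the genes that could be compared were past 2-fold, and only abundant genes could be compared. Smaller differences were more common. The counting interval lay off 0 for 141 of the 640 genes of Sun1_WT (77 higher, 64 lower). In Sun1_KO it did for 107 of the 479 (45 higher, 62 lower).

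Gene models over ribosomal RNA sequence were among the highest. AY036118, annotated over ribosomal RNA repeat sequence, stood at 5268 CPM in shallow nuclei of Sun1_WT against 1855 in deep ones, a log2 difference of 1.51 (1.36 to 1.64). In Sun1_KO it stood at 5139 against 2678, a difference of 0.94 (0.78 to 1.10). Gm42418, another model over such sequence, is an unnamed model outside the rule and was chosen after its values were seen. It stood at 17580 against 6309 CPM in Sun1_WT (1.48, 1.40 to 1.55) and 36660 against 14984 in Sun1_KO (1.29, 1.23 to 1.35).

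Gm42418 was found in every shallow nucleus of both libraries. Its median share of a nucleus's UMIs was 1.36% and 2.15%, against 0.496% and 1.03% in deep nuclei and 0.821% and 1.31% in shallow leukocyte nuclei. Shallow leukocyte nuclei also had more of it than deeper leukocyte nuclei, by 0.59 and 0.54 on the log2 scale, and more AY036118, by 0.74 and 0.34. Gated nuclei of middle depth differed less from deep ones, by 0.45 and 0.07 for Gm42418 and by 0.11 and -0.17 for AY036118. On the tumour side of the index alone, the shallow nuclei gave 1.49 and 1.43 for Gm42418.

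Among the other higher genes were Camk1d, Cdk8 and Jarid2. Camk1d, a calcium-dependent kinase, stood at 2584 CPM in shallow against 1065 in deep nuclei of Sun1_WT (1.28, 1.08 to 1.48) and 2968 against 1539 in Sun1_KO (0.95, 0.73 to 1.15), with UMIs in 49 and 46 nuclei. Cdk8, the kinase of the Mediator complex, was higher by 1.56 (1.12 to 1.94) and 1.04 (0.58 to 1.43). Jarid2, a partner of the Polycomb complex PRC2, stood at 584 against 257 CPM (1.20) and at 859 against 412 (1.07), with UMIs in 33 and 30 nuclei. Without the nucleus that held 12 of the 51 Cdk8 UMIs of Sun1_WT, Cdk8 was higher by 1.19 there.

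These genes did not all follow depth in leukocytes. Shallow against deeper leukocyte nuclei, Camk1d differed by -0.44 and -0.19, Cdk8 by -0.39 and 0.06 and Jarid2 by 0.60 and 0.43. Nor was Camk1d higher in gated nuclei of middle depth, at -0.19 in both libraries against deep ones. With the shallow nuclei on the tumour side only, Camk1d was still higher by 1.31 and 0.91, Cdk8 by 1.59 and 1.13 and Jarid2 by 1.20 and 1.04. Shallow leukocyte nuclei held 1715 and 2528 CPM of Camk1d and 922 and 1014 CPM of Jarid2.

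Cmss1 was higher by 1.04 (0.64 to 1.39) and 0.70 (0.37 to 1.00). Tmsb4x, the actin-binding thymosin, stood at 758 against 389 CPM in Sun1_WT (0.97) and 594 against 267 in Sun1_KO (1.17). It is abundant in leukocytes, at 2030 and 1406 CPM in the shallow ones. Actb, the cytoplasmic actin, was higher by 0.81 (0.66 to 0.96) and 0.45 (0.25 to 0.64), where nuclei of middle depth were lower than deep ones, by -0.80 and -0.45. In Sun1_KO Actb went to -0.09 when nuclei with any leukocyte marker UMI were left out of both groups.

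Pde4d, Slit3 and Iigp1 closed the list of 10. Slit3, a secreted guidance protein, was higher by 0.46 and 0.84 against deep nuclei but lower than in nuclei of middle depth, by -0.89 and -0.31. Pde4d, a cAMP phosphodiesterase, was higher by 1.00 and 0.91, and by 0.46 (-0.29 to 1.05) and 0.57 (-0.12 to 1.13) without its top nucleus, which held 10 of 30 UMIs in Sun1_WT and 7 of 30 in Sun1_KO. Iigp1, an interferon-induced GTPase, was higher by 0.52 in both libraries, and by 0.38 and 0.39 without its top nucleus, where both intervals reached below 0.

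The lower genes named by the rule began with a pair of chaperones. Hsp90ab1, a cytosolic chaperone, stood at 1106 against 1808 CPM in Sun1_WT (-0.70, -1.03 to -0.41) and 781 against 1362 in Sun1_KO (-0.79, -1.23 to -0.40). Hspd1, the mitochondrial chaperonin, differed by -0.77 (-1.33 to -0.30) and -1.16 (-2.08 to -0.46). Pabpc1, which binds poly(A) tails, differed by -0.75 and -0.41, Ncl, nucleolin, by -0.57 and -0.73, and Pgk1, a glycolytic enzyme, by -0.51 and -0.69. Nuclei of middle depth were also lower than deep ones for all of these genes. They differed by -0.66 and -0.34 for Hsp90ab1, and by -1.12 and -0.70 for Hspd1. For Pabpc1 the values were -0.73 and -0.62, for Ncl -1.08 and -0.66, and for Pgk1 -0.13 and -0.39.

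Spp1, which encodes osteopontin, stood at 3193 against 4668 CPM and at 2296 against 3143. Unc13c, a gene of vesicle release, differed by -0.51 and -1.16, Rpl9 by -0.47 and -0.37, and Rps2 by -0.26 and -0.45. Malat1, an abundant RNA of nuclear speckles chosen after its values were seen, was level with deep nuclei at -0.01 and -0.08. It was 0.66 and 0.59 higher in nuclei of middle depth than in deep ones.

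**Figure D3:**
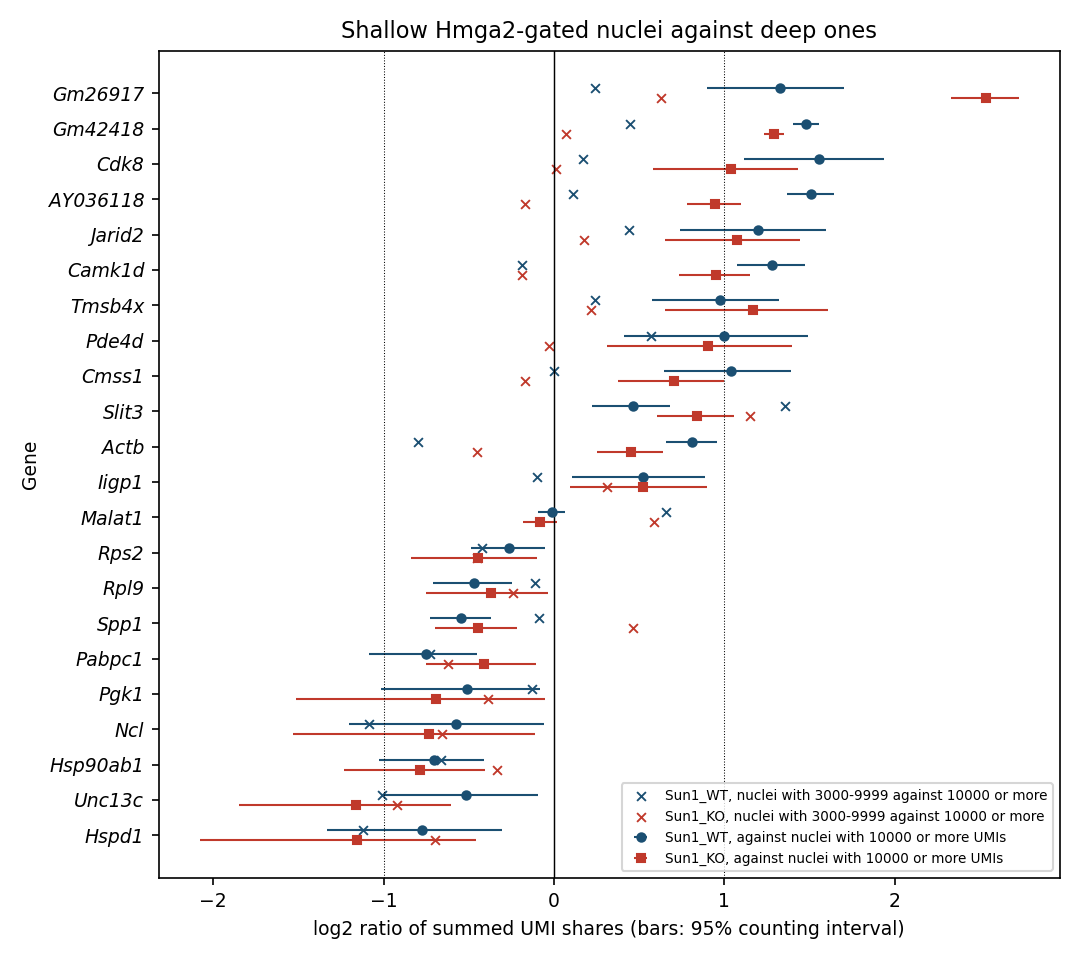
log2 ratio of shallow over deep Hmga2-gated nuclei (x) for the 10 higher and 9 lower named genes and for Gm42418, Gm26917 and Malat1 (y), with 95% counting intervals. Crosses give gated nuclei of middle depth (3000 to under 10000 UMIs) over deep ones, which for AY036118 sit at 0.11 and -0.17 while the shallow nuclei sit at 1.51 and 0.94.

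For a few genes 1 or 2 nuclei held a large share of the UMIs, and these genes were chosen after their values were seen. Gm26917 was higher by 2.54 in Sun1_KO, where 1 nucleus held 50 of its 216 UMIs, and by 1.33 in Sun1_WT. Without the top nucleus it was still higher, by 2.18 (1.95 to 2.40) and 1.12 (0.65 to 1.53). Col1a1, a fibrillar collagen, was higher by 2.19 in Sun1_WT, where 1 nucleus held 21 of 43 UMIs, and by 1.26 (0.55 to 1.82) without it. In Sun1_KO it was higher by 1.23. Tnc, a matrix protein and a tumour marker of the list, had 27 UMIs in Sun1_WT, all of them in 2 nuclei.

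Mitochondrial RNA was lower, as a measure the gate had bounded. The median share was 3.26% of UMIs in shallow nuclei of Sun1_WT and 7.54% in Sun1_KO, against 6.88% and 11.5% in deep nuclei. Shallow leukocyte nuclei had 2.15% and 5.05%.

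Gene lists of cell state were then summed. Genes of G2 and M phase, which run mitosis, had 3379 CPM in shallow nuclei of Sun1_WT, 1391 in nuclei of middle depth and 5521 in deep ones. In Sun1_KO they had 3608, 1875 and 5065. Shallow over deep the sum differed by -0.71 (-0.89 to -0.54) and -0.49 (-0.68 to -0.30). The sum did not follow depth throughout: against the middle group the shallow nuclei were higher, by 1.28 and 0.94. Of the 34 genes, 32 and 34 had a UMI in shallow nuclei.

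Members of the mitotic list varied. Cenpf, a kinetochore protein, differed by -0.92 (-1.72 to -0.30) and -1.29 (-2.50 to -0.45) from deep nuclei. Top2a, the topoisomerase of dividing cells, stood at 410 against 675 CPM in Sun1_WT and 500 against 597 in Sun1_KO, and Smc4, a condensin subunit, differed by -0.26 and 0.05. Genes of S phase, the phase of DNA copying, had 1603, 842 and 2442 CPM from shallow to deep in Sun1_WT and 1843, 1048 and 2448 in Sun1_KO. In leukocytes the mitotic sum was also lower in shallow than in deeper nuclei, by -1.09 and -1.41.

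Stress programmes were lower than in deep nuclei rather than higher. Heat shock genes had 2858 against 3690 CPM in Sun1_WT (-0.37, -0.56 to -0.18) and 2031 against 3088 in Sun1_KO (-0.60, -0.86 to -0.36). Genes of the integrated stress response, the ATF4 programme, differed by -0.73 (-1.04 to -0.44) and -0.40 (-0.75 to -0.08). Hypoxia and glycolysis genes differed by -0.37 and -0.34. Nuclei of middle depth had 2825 and 2726 CPM of heat shock genes, in Sun1_WT close to the shallow ones. For the integrated stress response they had 1460 and 1280 CPM, against 1155 and 1187 in shallow nuclei. For hypoxia and glycolysis they had 4252 and 2536, against 2994 and 2202. Targets of p53 and apoptosis genes differed by -0.02 (-0.32 to 0.27) and -0.24 (-0.59 to 0.10), so that neither direction could be told at this depth.

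The ribosomal protein genes were close to level in Sun1_WT and lower in Sun1_KO. Their sum differed by -0.02 (-0.06 to 0.02) and -0.21 (-0.27 to -0.15), and 18 and 29 of the 34 genes were below 0. All 34 were compared in both libraries, with medians of -0.06 and -0.20, beside 0.05 and -0.08 over all genes. None in Sun1_WT and 1 in Sun1_KO was 1.5-fold lower, where 5.47% and 7.1% of all genes were, and none was 1.5-fold higher. Abundant cytoplasmic mRNAs had medians of -0.18 (24 compared) and -0.14 (21 compared). Spliceosome and speckle genes had medians of 0.22 (8 compared) and 0.14 (9 compared).

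Genes spanning 200 kb or more gave 12.9% of matched UMIs in shallow nuclei against 10.6% in deep ones in Sun1_WT, and 14.8% against 13.4% in Sun1_KO. Genes under 10 kb gave 32.4% against 33.8% and 23.6% against 25.1%. Nuclei of middle depth had 12.5% and 14.4% from the long genes, close to the shallow ones.

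Collagen and matrix genes were higher than in deep nuclei, by 0.30 (0.16 to 0.43) and 0.21 (0.04 to 0.38), and lower than in nuclei of middle depth, by -0.47 and -0.51. In Sun1_WT the difference from deep nuclei was -0.17 for shallow nuclei with an index over 90. Genes of the nuclear envelope and LINC complex, the partners of SUN1, differed by -0.21 (-0.40 to -0.03) and -0.20 (-0.41 to 0.01). YAP and TEAD targets differed by -0.16 and -0.18, with both intervals reaching above 0. Genes of the interferon response differed in opposite directions, by -0.23 (-0.32 to -0.13) in Sun1_WT and 0.16 (0.05 to 0.25) in Sun1_KO. Their most abundant members present antigen: H2-D1 differed by -0.49 and 0.04, and B2m by -0.03 and 0.46.

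Macrophage markers had the highest summed level of the leukocyte lists in these nuclei. The 12 markers summed to 671 CPM in shallow nuclei of Sun1_WT (54 UMIs, 11 markers detected) and 2530 in Sun1_KO (162 UMIs, all 12 detected). Deep nuclei had 135 and 124, nuclei of middle depth 198 and 256, and shallow leukocyte nuclei 4537 and 3344. The log2 differences from deep nuclei were 2.31 (1.90 to 2.70) and 4.35 (4.12 to 4.59). On the tumour side of the index the sums were 648 and 783 CPM, so that in Sun1_KO most of the excess was in the nuclei on the other side. With an index over 90 the differences were still 1.61 and 2.39.

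The markers behind the sums were shared by both libraries in part. In Sun1_WT Lyz2, a lysozyme, had 14 UMIs, Cd74, the invariant chain, 13, and C1qa, a complement component, 7. In Sun1_KO Mrc1, the mannose receptor, had 32 UMIs, C1qa 31, Lyz2 23 and Cd74 22. Thinned to 500 UMIs, 22.6% of shallow nuclei of Sun1_WT and 41.3% of Sun1_KO had a macrophage marker. The shares were 7.40% and 6.19% of deep nuclei and 48.9% and 49.5% of shallow leukocyte nuclei. The part of this macrophage RNA in the other differences from deep nuclei was not tested.

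Markers of other lineages, fibroblasts apart, had few UMIs but also stood above deep nuclei in part. T cell markers had 4 UMIs in each library, from 2 and 3 of 10 markers, with Cd3d, Cd8a and Cd4 at 0 in both. That was 49.7 and 62.5 CPM against 5.88 and 7.87 in deep nuclei, log2 differences of 3.08 (1.19 to 4.46) and 2.99 (1.09 to 4.38). NK cell markers had 8 and 14 UMIs from 5 and 6 of 8, or 99.4 and 219 CPM against 8.47 and 9.90, differences of 3.55 (2.33 to 4.55) and 4.46 (3.56 to 5.25). Both lists stood far lower than in shallow leukocyte nuclei, at 2614 and 2510 CPM for T cell and 3308 and 1999 for NK cell markers. Neutrophil and dendritic cell markers had 0 UMIs in Sun1_WT and 1 each in Sun1_KO. The B cell list rested on Ebf1 alone, with 8 and 16 UMIs in 2 nuclei of each library (4.31 and 3.43 on the log2 scale), and endothelial markers had 6 and 8 UMIs. Fibroblast markers were abundant in shallow and deep nuclei alike. They had 205 and 152 UMIs in shallow nuclei, or 2547 and 2374 CPM against 2055 and 2020 in deep ones. The differences were 0.31 (0.10 to 0.51) and 0.23 (-0.01 to 0.46). The tumour index was learned against leukocytes only and does not speak to fibroblasts.

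**Figure D4:**
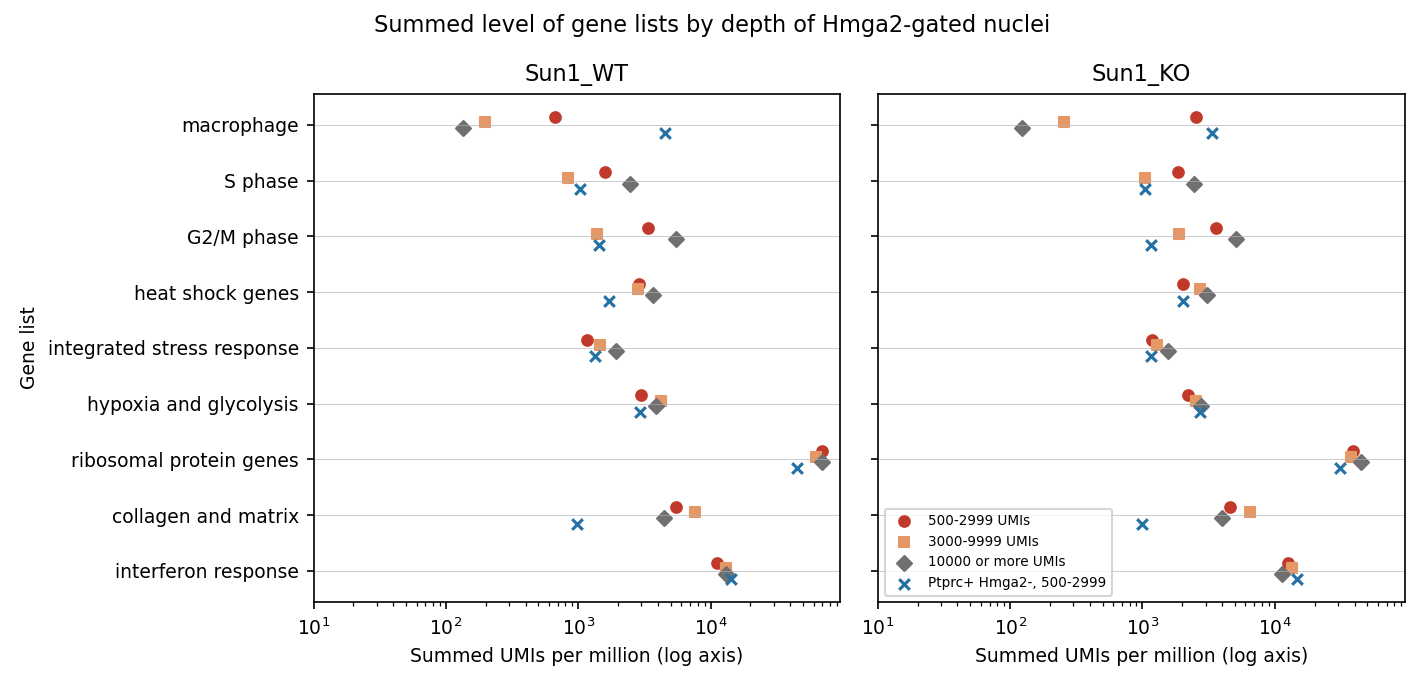
Summed level (x, CPM, log axis) of gene lists (y) by group of nuclei in both libraries. For macrophage markers the shallow Hmga2-gated nuclei (red) lie at 671 and 2530 CPM, between deep nuclei at 135 and 124 and shallow leukocyte nuclei at 4537 and 3344, and for G2/M genes they lie between the middle and the deep group.

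The comparison of the study, Sun1_KO against Sun1_WT, was read within the shallow nuclei as a difference between 1 library and 1 library. Of 469 genes compared, 15 were at least 2-fold higher in Sun1_KO (3.2%) and 59 at least 2-fold lower (12.6%), with a median of -0.07. In deep nuclei the same genes gave 4 higher (0.853%) and 11 lower (2.35%), with a median of 0.07. These counts are not like for like, since the shallow sums held far fewer UMIs. On simulated counts of the shallow size with 2-fold changes, 2.14% of unchanged genes passed 2-fold. Those counts left out the piling of UMIs in single nuclei, so this share was not tested for the real sums. The shallow sets also differed in make-up, with 9 of 63 nuclei of Sun1_KO and 1 of 62 of Sun1_WT on the leukocyte side of the index.

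Among the higher genes, Pid1 counted 11 UMIs in Sun1_WT against 59 in Sun1_KO, a log2 difference of 2.70 (1.81 to 3.83). In deep nuclei Pid1 differed by -0.06. A single nucleus held 23 of the 59 UMIs, and shallow leukocyte nuclei held 2394 and 2338 CPM of it. Zeb2, a repressor of epithelial genes that macrophages also express, had 40 and 79 UMIs (1.30 against 0.40 in deep nuclei). A single nucleus held 15 of the 79, and Zeb2 had 2646 and 2384 CPM in shallow leukocyte nuclei. Trps1, a GATA-type repressor, differed by 0.93 against 0.59 in deep nuclei and stood at 2030 and 1784 CPM in shallow leukocyte nuclei.

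The remaining higher genes named by the rule, Tulp4 and Cacna1c, stood lower in leukocytes than Pid1, Zeb2 and Trps1. Tulp4 had 17 and 35 UMIs, a difference of 1.35 against 0.10 in deep nuclei, and 78.1 and 121 CPM in shallow leukocyte nuclei. Cacna1c, a calcium channel subunit, had 16 and 33 UMIs, a difference of 1.35 against 0.47, and 17.3 and 2.57 CPM in shallow leukocyte nuclei.

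Of the 59 lower genes, the 4 described here are a metallothionein and ribosomal proteins. Mt1, which binds zinc and copper, had 81 UMIs in 41 nuclei of Sun1_WT and 15 UMIs in 13 nuclei of Sun1_KO, a difference of -2.06 (-3.00 to -1.30) against -0.79 in deep nuclei. Rpl26 had 66 and 15 UMIs (-1.77 against -0.48 in deep nuclei) and Rpl28 188 and 56 (-1.41 against -0.87). Rpl39, which lies in the chromosome X stretch, had 180 and 52 UMIs, with -1.45 in shallow and -1.33 in deep nuclei. All 4 pointed the same way at both depths. All 4 were also lower in the shallow leukocyte nuclei of Sun1_KO than in those of Sun1_WT. Mt1 had 128 against 353 CPM there, Rpl26 280 against 422, Rpl28 744 against 1339 and Rpl39 765 against 1437.

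**Figure D5:**
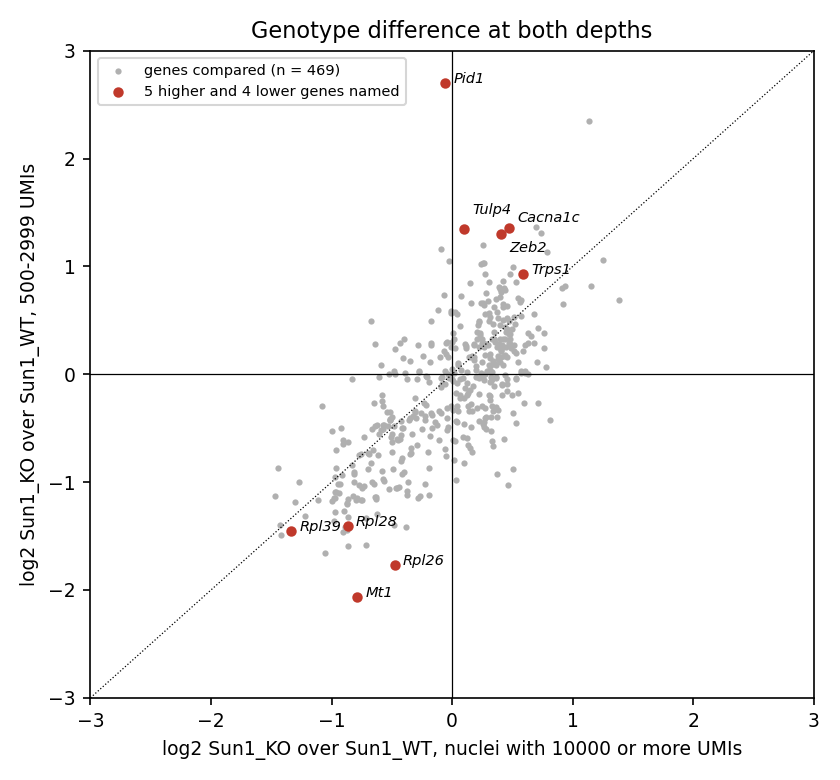
log2 difference between Sun1_KO and Sun1_WT for 469 genes in deep (x) and shallow (y) Hmga2-gated nuclei, with the 9 named genes in red and equal values on the dotted line. Pid1 stands at 2.70 in shallow and -0.06 in deep nuclei, and Mt1 at -2.06 and -0.79.

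All 7 genes named for their genotype difference in deep nuclei had too few UMIs here to meet the rule for comparison. Ift81, a gene of transport in cilia, counted 2 UMIs in Sun1_WT against 14 in Sun1_KO, a log2 difference of 2.87 (1.02 to 6.32) beside 2.88 in deep nuclei. Cask, a scaffold protein encoded in the chromosome X stretch, had 6 and 4 UMIs, where deep nuclei differed by -3.03 and shallow leukocyte nuclei had 150 and 167 CPM. Tmlhe had 4 and 0 UMIs (deep 41.3 against 1.27 CPM), Krt18 2 and 0, Il13ra1 1 and 1, Ikzf2 0 and 4, and Eomes 0 and 1. A sum of 0 allowed up to 37.3 CPM in Sun1_WT and 46.9 in Sun1_KO, so the values other than those of Ift81 set no direction.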

How the data were processed

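RNA counts and accessibility counts per barcode were deposited by the authors as whole numbers per gene and per peak, on mm10 per the labels. Cell Ranger ARC, Cell Ranger, Seurat, Signac and FastQC are named in the submitters' processing notes, without versions. Of the values above 0 in the accessibility tables, 75.5% (Sun1_WT) and 75.0% (Sun1_KO) were even, so a count may be a cut end and not a fragment. Library depth is given with the results.

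Barcodes were joined between RNA and accessibility within a genotype. Peaks of both libraries that overlapped by at least 1 base were merged to 147471 regions, 113805 of them found in both, and only these were used for comparisons of accessibility. The chromosome X stretch was set by windows of 1 Mb in deep nuclei, of which 22 of 23 were at most 0.7 times as open in Sun1_KO. Sums were scaled by the total without mitochondrial genes. edgeR 4.0.16 was used for an alternative scaling only. Work was done in Python 3.11.15, NumPy 2.4.6, SciPy 1.17.1, pandas 2.3.3, matplotlib 3.10.9 and R 4.3.3. Binomial intervals are exact (Clopper-Pearson, 95%), fold intervals exact conditional ones, and a count of 0 was read as at most 3 counts. The interval of the accessibility ratio took the bounds of the shallow median from ranked nuclei, with the deep median held fixed. On simulated counts with 2-fold changes, the estimated fold passed 2-fold in 41.2% (Sun1_WT) and 41.8% (Sun1_KO) of changed genes. The interval lay off 0 in the right direction in 100% and 99.4% of them. Changes were given only to the more abundant of the genes compared. The simulated counts also left out the piling of UMIs in single nuclei. These shares therefore do not give the power for scarcer genes or for genes with UMIs in few nuclei.

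Named genes were the 10 higher and 10 lower by the interval bound nearest 0 in the less certain library, in the same direction in both and without unnamed models, the 5 higher and 5 lower between genotypes, the leading members of each list, and Cask, Tmlhe, Il13ra1, Krt18, Ift81, Ikzf2 and Eomes. The members, lists and rules were chosen with earlier results of these data known. A named gene that fell under the rule in each comparison is not reported here.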

Additional observations from a re-analysis of the deposited data

Results flagged for a closer look

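The sum of the interferon response list pointed in opposite directions in the 2 libraries, with neither interval reaching 0. The list of chromatin writers and Hmga genes, at 0.16 in Sun1_WT and -0.14 in Sun1_KO, did so too, but its most abundant member is Hmga2, which the gate used. Shallow over deep Hmga2-gated nuclei, the summed level differed by -0.23 on the log2 scale in Sun1_WT (-0.32 to -0.13) and by 0.16 in Sun1_KO (0.05 to 0.25), each from 1 library. The difference between the libraries was not tested. In Sun1_KO the value was -0.040 with TMM scaling and -0.30 in nuclei with a tumour index over 90.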

How the results depend on the processing

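No paired analysis was possible because each genotype has 1 RNA and 1 accessibility library. The 49 planned and 5 later alternatives were applied to 97 results, the later ones chosen after seeing the data. Of 278 values for the main results, 218 moved by less than their counting interval or 1.5 times, and of 620 values for single genes and other lists, 541 did. Scored as reversed in direction were 7 of the 278 and 15 of the 620. Values are given as Sun1_WT and Sun1_KO.

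With at least 2 Hmga2 UMIs, the share of gated nuclei that were shallow was 2.01% and 3.36%, the tumour side held 100% in Sun1_WT, the chromosome X stretch stood at 2485 CPM in Sun1_KO, genes past 2-fold numbered 8 in Sun1_KO, heat shock was -0.87 and macrophage markers 3.83 in Sun1_KO, and leukocytes passing were 3.94% and 1.58%. With at most 10% mitochondrial UMIs the Sun1_KO share was 9.74%. Leaving out nuclei with any leukocyte marker UMI also removes most deep nuclei, since they hold more UMIs. The share was then 7.52% and 14.1%, G2/M -0.38 and 0.010, S phase -0.31 and 0.14, the ribosomal median -0.35 in Sun1_WT, the cytoplasmic median -0.69 and Actb -0.088 in Sun1_KO. Expecting at least 50 UMIs, 3 and 3 genes passed 2-fold and 37 did between genotypes. With at least 10, 64, 80 and 223 did.

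Against gated nuclei of middle depth, 40 and 28 genes passed. G2/M was 1.28 and 0.94, S phase 0.93 and 0.81, macrophage markers 1.76 and 3.31, and collagen and matrix -0.47 and -0.51. Heat shock was 0.017, the ribosomal median 0.16 and the collagen median -0.61 in Sun1_WT, and interferon -0.085 in Sun1_KO. Slit3 was -0.89 and -0.31, Rps2 0.16 and 0.0037, Pabpc1 0.21 in Sun1_KO, and Hspd1 0.35, Unc13c 0.49 and Ncl 0.51 in Sun1_WT. The causes were not tested.

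With an index over 90, macrophage markers were 1.61 and 2.39, collagen -0.17 in Sun1_WT, and in Sun1_KO 10 genes passed, G2/M was -0.25, heat shock -0.98 and interferon -0.30. On the tumour side, macrophage markers were 2.66 in Sun1_KO. Without the top nucleus they were 1.81 and 3.98. As a mean of shares per nucleus, G2/M was -0.48 and -0.13. TMM scaling gave G2/M -0.68 and interferon -0.040 in Sun1_KO. Counting peaks, the accessibility ratio was 0.148 and 0.152. With open or closed regions the X stretch stood at 4293 and 2696. With the dividing value set nearer to the leukocytes than the midpoint, 95.2% of Sun1_KO lay on the tumour side. Thinned medians were 577 and 573 genes at 750 UMIs, 759 and 776 without mitochondrial UMIs, and 404 and 398 at 500 UMIs. Leukocytes by at least 2 Ptprc UMIs passed in 2.35% and 5.19%, and by macrophage markers in 15.7% in Sun1_KO. The depth of the shallow nuclei limited the comparison to abundant genes.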
